A study of Mus musculus with 14 samples.

Results

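The genes described here are 25 mouse genes for the receptors, synapse proteins, enzymes and transporters of the inhibitory transmitter GABA. They were chosen by symbol, from a list that names them, and found in the count table through their Ensembl identifiers. All 25 were present among the 43346 genes of the table. They comprise 10 subunits of the GABA-A receptor (Gabra2, Gabra3, Gabra4, Gabra5, Gabrb1, Gabrb2, Gabrg1, Gabrg3, Gabrd and Gabre) and 2 subunits of the GABA-B receptor (Gabbr1 and Gabbr2). The others are 3 proteins of the inhibitory synapse (Gphn, Nlgn2 and Lhfpl4), 3 genes of synthesis and vesicle loading (Gad1, Gad2 and Slc32a1), 2 uptake transporters (Slc6a11 and Slc6a13), 2 breakdown enzymes (Abat and Aldh5a1) and 3 genes of the GABARAP family (Gabarap, Gabarapl1 and Gabarapl2).

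The study measured polyadenylated RNA of GFP-positive cells sorted from the hippocampus of wild-type C57BL/6 mice at day 14, in pools of 800 to 1000 live cells that the labels call adult-born granule cells. SMART-Seq v4, a method for very small RNA inputs, was used to make the cDNA. The study asked how seizures and silencing change gene expression in these cells. CAG-GFP Sham held 3 libraries of cells with GFP and no seizures, and CAG-GFP Pilo held 4 libraries of cells with GFP from mice given pilocarpine, a muscarinic agonist that sets off prolonged seizures (status epilepticus), at 300.0 mg/kg. Scopolamine methyl nitrate and terbutaline hemisulfate were given before it, and diazepam ended the seizures after 3 hours. DREADD Sham held 4 libraries of cells with a DREADD and no seizures, and DREADD Pilo held 3 libraries of cells with a DREADD after pilocarpine, labelled as silenced. A DREADD is a designer receptor for clozapine N-oxide (CNO), and all 4 groups, the controls included, received CNO. CAG is a strong promoter active in most cell types, and the vector that carried it is not given in the sources used here. Whether each library is a separate animal is not stated in the labels; the p-values therefore reflect the spread between libraries, which may be technical.

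GABA opens the GABA-A receptor, a chloride channel made of several subunits, and activates the GABA-B receptor, which acts through G proteins. Synaptic GABA-A receptors are held by gephyrin, while receptors with a delta subunit lie outside the synapse and carry a steady current in granule cells of the dentate gyrus. Newborn granule cells receive GABA before glutamate, and astrocytes remove GABA from the extracellular space and break it down.

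Library totals ran from 10613291 to 38614639 counts. Levels are given in CPM, each count divided by its library's total and TMM factor, and 23 of the 25 genes passed the filter on low counts with 18676 genes in all. Several libraries stood apart. The 3 CAG-GFP Sham libraries held 28700 to 30100 CPM of 14 astrocyte markers summed, against 871 to 6630 in the other groups, and no more than 14.6 CPM of Prox1 and 6.57 CPM of Dcx, which mark granule cells and young neurons. DREADD Pilo 3 held 150000 CPM of Ttr, a choroid plexus gene, and listed Prox1, Dcx, C1ql2 and Neurod1 at 0. CAG-GFP Pilo 4 had 9372 genes detected against 14512 to 20863 in the others, and listed Prox1 and Dcx at 0. Summed oligodendrocyte markers lay at 704 to 783 CPM in CAG-GFP Sham, 1590 to 39000 in CAG-GFP Pilo, 21200 to 41900 in DREADD Sham and 566 to 46600 in DREADD Pilo, and microglia markers at 205 to 31500 CPM over all libraries. Mitochondrial genes took 25.77% of counts in DREADD Pilo 3, 11.56% to 12.7% in CAG-GFP Sham and 2.06% to 13.87% in the others. Prox1 and Dcx, defining markers of the labelled cell type, were thus low or at 0 in these 5 libraries. The library names come in 2 styles. In 7 libraries, all 3 of CAG-GFP Sham among them, the name ends in PC or SC in capitals with a number, and in 7 libraries, all 3 of DREADD Pilo among them, it does not. Pseudogenes took 0.117% to 0.2% of counts in the first 7 and 4.329% to 8.119% in the other 7. The labels do not call the styles a batch. CAG-GFP Sham and DREADD Pilo lie in 1 style each, so a difference between them cannot be told apart from style. CAG-GFP Pilo and DREADD Sham hold libraries of both styles. Pairwise comparisons with CAG-GFP Pilo or DREADD Sham are therefore mixed with style in part, and were also fitted within a style. In bulk libraries, fewer cells of a type and less RNA per cell cannot be told apart.

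**Figure D1:**
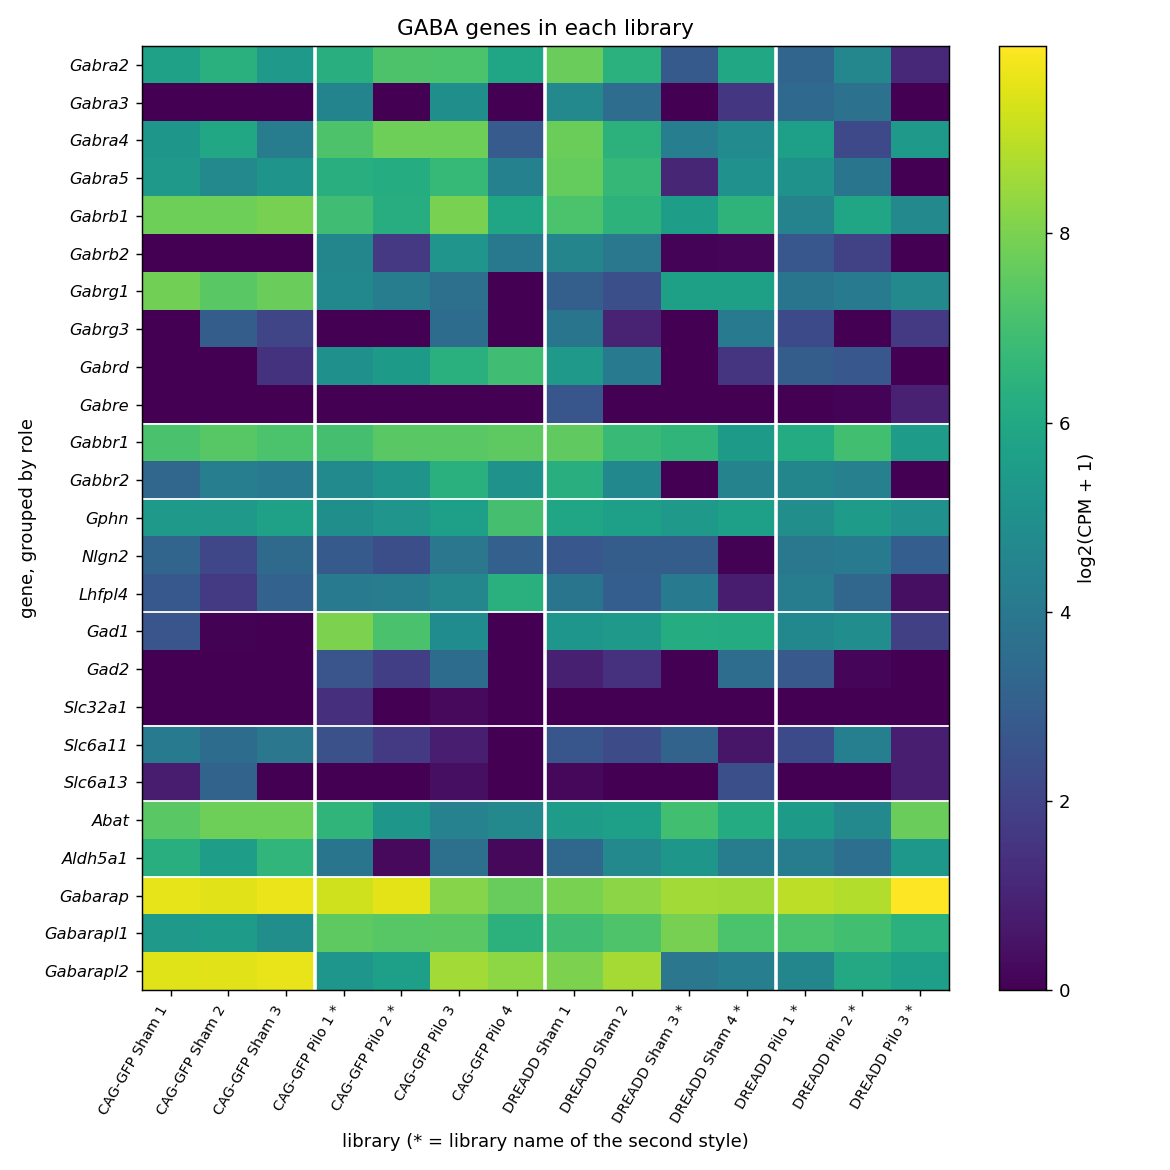
Each cell shows the level of 1 gene in 1 library as log2(CPM + 1), with genes grouped by role and libraries by group; an asterisk marks the 7 libraries whose names lack the PC or SC ending. Gabarap and Gabarapl2 were the brightest in CAG-GFP Sham, while Gabra3, Gabrb2, Gad2, Gabre and Slc32a1 were at 0 in all 3 of its libraries.

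By level per kilobase, as a description, the leading GABA-A subunit was Gabrg1 in CAG-GFP Sham, Gabra4 in CAG-GFP Pilo and Gabra5 in both DREADD groups. Gabrg1 and Gabrb1 were the most abundant subunits per kilobase of exon in CAG-GFP Sham, at means of 25.8 and 16.4 CPM per kb. In CAG-GFP Pilo the leading subunits were Gabra4 (24.1 CPM per kb), Gabrd (23.8) and Gabra5 (22.7), whose order lies within their spread. In DREADD Sham Gabra5 stood at 27.6, Gabra4 at 14.1 and Gabra2 at 11.6 CPM per kb. These means rest on DREADD Sham 1, without which they were 14.9, 7.1 and 6.54 CPM per kb. In DREADD Pilo Gabra5 stood at 5.2 and Gabra4 at 5.06 CPM per kb, within their spread, and without DREADD Pilo 1 or 2 Gabra4 lay above Gabra5.

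Gabra2, a synaptic alpha subunit (chr5:70957597-71095849, minus strand, GRCm38), measured 51.6, 80.1 and 41.8 CPM in the CAG-GFP Sham libraries and 77.6, 147, 143 and 58.9 CPM in those of CAG-GFP Pilo. It measured 205, 82.3, 6.13 and 61.5 CPM in DREADD Sham and 8.45, 23.3 and 1.23 CPM in DREADD Pilo. Every DREADD Pilo library lay below every CAG-GFP Pilo library, whereas DREADD Sham overlapped both. Gabrb1, a beta subunit (chr5:71658113-72149037, plus strand), measured 216, 218 and 245 CPM in the CAG-GFP Sham libraries and 119, 74.5, 249 and 59.7 CPM in those of CAG-GFP Pilo. It measured 143, 87.3, 47.6 and 88.9 CPM in DREADD Sham and 20.9, 57 and 24.7 CPM in DREADD Pilo, again below every CAG-GFP Pilo library. Gabra4, an alpha subunit that pairs with delta in granule cells, measured 38.1, 59.9 and 17.6 CPM in the CAG-GFP Sham libraries and 147, 218, 216 and 6.28 CPM in those of CAG-GFP Pilo, where replicate 4 was far below the other 3. It measured 214, 84, 18.4 and 27.2 CPM in DREADD Sham and 48.4, 3.61 and 40.4 CPM in DREADD Pilo, so that all groups overlapped.

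Gabra4 and Gabrb1 lie head to head on opposite strands of chromosome 5 and share 46 exon bases. The strand setting of the counting is not given in the sources used here, so reads from those bases cannot be assigned to either gene. The reference promoter of Gabra4, 250 bases before to 50 after its start (RefSeq, GRCm38.p6, chr5:71658259-71658558, minus strand), is shown because its start lies in that overlap. Capitals mark the GC box, GGGCGG on either strand.
Gabra4: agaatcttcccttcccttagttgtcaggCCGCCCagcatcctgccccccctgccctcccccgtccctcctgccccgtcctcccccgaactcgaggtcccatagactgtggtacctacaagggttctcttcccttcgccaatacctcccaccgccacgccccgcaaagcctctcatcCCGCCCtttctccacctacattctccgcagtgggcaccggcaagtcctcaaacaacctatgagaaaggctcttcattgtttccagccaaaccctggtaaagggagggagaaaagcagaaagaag

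Gabrb2, a beta subunit abundant in the adult brain (chr11:42419757-42629028, plus strand), was at 0 counts in all 3 CAG-GFP Sham libraries. It measured 22.9, 2.12, 36.1 and 15.4 CPM in CAG-GFP Pilo, 22.1, 14.8, 0.0584 and 0.087 CPM in DREADD Sham, and 5.47, 2.77 and 0 CPM in DREADD Pilo. With CAG-GFP Sham set to 3 counts over the group, Gabrb2 was at least 438-fold higher in CAG-GFP Pilo (at least 288-fold to 553-fold with each CAG-GFP Pilo library left out) and at least 241-fold higher in DREADD Sham (129-fold to 303-fold). Such bounds cover counting error only. In DREADD Sham the signal lay in replicates 1 and 2, which carry PC or SC names. Gabra3, an alpha subunit, was at 0 in CAG-GFP Sham; it stood at 21.8, 0, 30.2 and 0 CPM in CAG-GFP Pilo, then 25, 10.8, 0 and 1.96 CPM for DREADD Sham and 9.6, 12.6 and 0 CPM in DREADD Pilo. Its lower bound against CAG-GFP Sham was at least 249-fold in CAG-GFP Pilo and at least 248-fold in DREADD Sham, and it was as low as 61.3-fold and 106-fold with 1 library left out. Each group that had counts for Gabra3 also held a library at 0.

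Gabrd, the delta subunit of extrasynaptic receptors (chr4:155384980-155398112, minus strand), measured 0, 0 and 1.78 CPM in the CAG-GFP Sham libraries and 31.1, 42.8, 80.2 and 120 CPM in those of CAG-GFP Pilo, so the groups did not overlap. It measured 41.8, 16.1, 0 and 1.83 CPM in DREADD Sham and 6.61, 5.47 and 0 CPM in DREADD Pilo. The summed CPM of 9 mature granule cell markers lay at 387 to 1140 for CAG-GFP Pilo and at 90.5 to 119 for CAG-GFP Sham. It lay at 162 to 800 for DREADD Sham and at 145 to 207 for DREADD Pilo. By library the sum was 889, 819, 1140 and 387 CPM in CAG-GFP Pilo and 559, 800, 252 and 162 CPM in DREADD Sham. CAG-GFP Pilo 4 had the most Gabrd (120 CPM) and the lowest sum of its group. DREADD Sham 3 and 4 had the least Gabrd and the lowest sums of theirs. The part of these markers in the level of Gabrd was not tested. Gabra5, an extrasynaptic alpha subunit, averaged 33.7 ± 7.76 CPM in the 3 libraries of CAG-GFP Sham (SD, n = 3), 67.5 ± 34.6 for CAG-GFP Pilo (n = 4), 82 ± 85.9 for DREADD Sham (n = 4) and 15.5 ± 16.4 for DREADD Pilo (n = 3). Gabrg1, a gamma subunit also found in glia, measured 230, 171 and 207 CPM in the CAG-GFP Sham libraries and at most 24.4 CPM in CAG-GFP Pilo, 50.5 for DREADD Sham and 25.2 for DREADD Pilo. Gabrg3, another gamma subunit, did not exceed 16.5 CPM in any library. Gabre, the epsilon subunit, failed the filter and had counts in 3 libraries, at 5.36 CPM in DREADD Sham 1 and at 0.0601 and 0.892 CPM in DREADD Pilo 2 and 3.

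**Figure D2:**
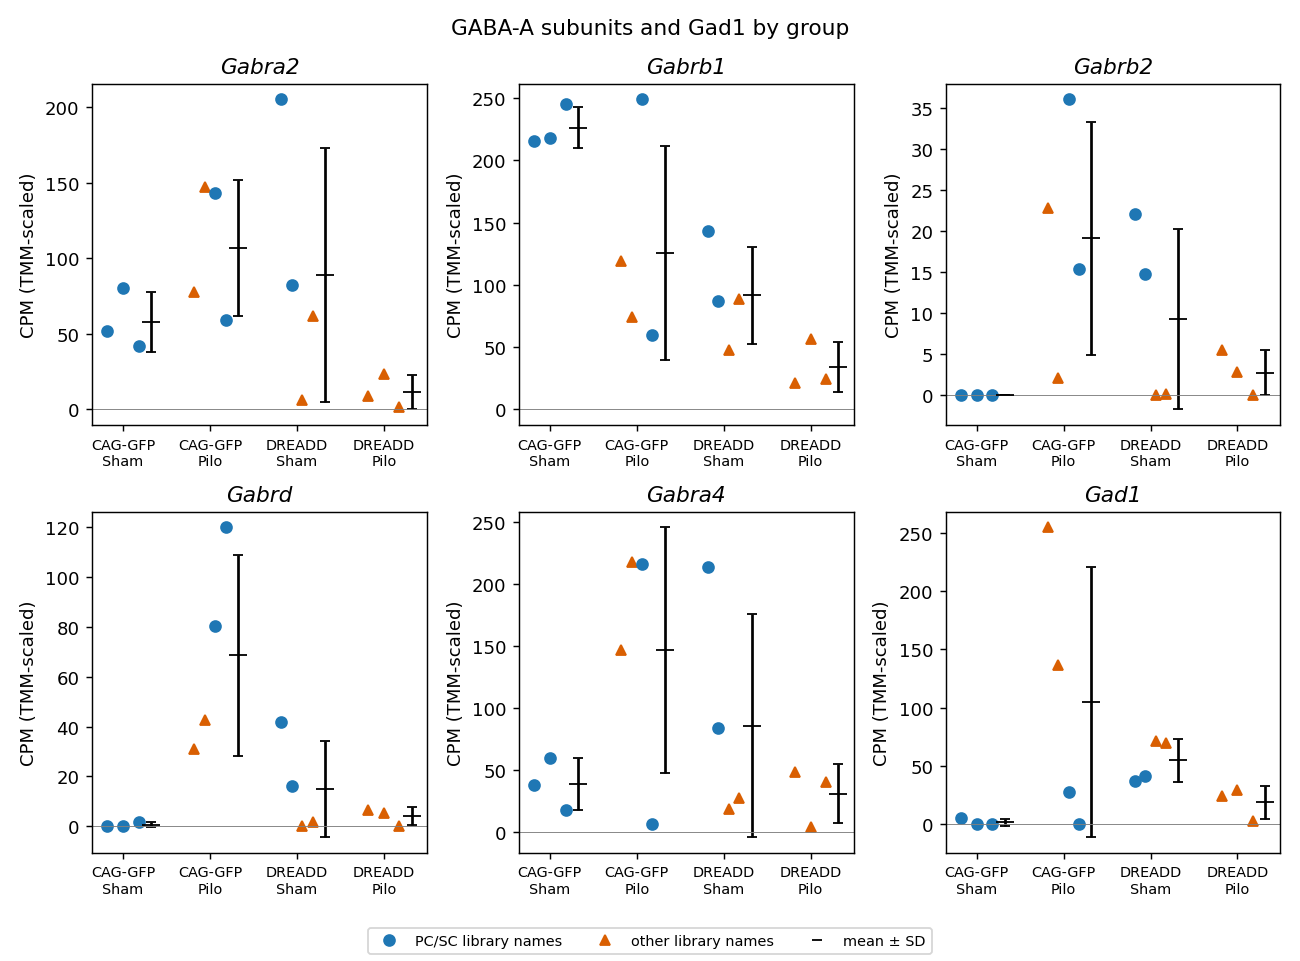
Points show the CPM of Gabra2, Gabrb1, Gabrb2, Gabrd, Gabra4 and Gad1 in each library by group, with circles for names ending in PC or SC and triangles for the others, and bars give the mean and SD. Gabra2 lay at 1.23 to 23.3 CPM in DREADD Pilo and at 58.9 to 147 in CAG-GFP Pilo.

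Of the GABA-B receptor genes, Gabbr1 had counts in all 14 libraries and Gabbr2 in 12. Gabbr1, the subunit that binds GABA, averaged 149 ± 16.1 CPM in the 3 libraries of CAG-GFP Sham (SD, n = 3), 164 ± 22.9 for CAG-GFP Pilo (n = 4), 106 ± 59.1 for DREADD Sham (n = 4) and 79.7 ± 39.9 for DREADD Pilo (n = 3). Gabbr2, the subunit that couples to G proteins, averaged 14.3 ± 4.82, 44 ± 24.5, 30.3 ± 32.3 and 14 ± 12.2 CPM in the same order. Among the synapse proteins, Gphn, which encodes gephyrin, averaged 44.5 ± 6.14, 61.7 ± 47.7, 49.2 ± 7.91 and 35.2 ± 7.79 CPM in that order, with 132 CPM in CAG-GFP Pilo 4. Nlgn2, a neuroligin of inhibitory synapses, did not exceed 15.9 CPM in any library. Lhfpl4, which links GABA-A receptors to neuroligin, measured 2.22 to 7.7 CPM in the CAG-GFP Sham libraries and 15.7 to 79.7 CPM in those of CAG-GFP Pilo. The Lhfpl4 transcript holds a stretch of about 200 bases that matches many other transcripts, and Gphn and Gabra5 share 147 and 148 exon bases with a gene on the opposite strand.

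Genes of GABA synthesis and vesicle loading were detected unevenly. Gad1, the larger glutamate decarboxylase that makes most of the cell's GABA, measured 5.22, 0.0494 and 0 CPM in the CAG-GFP Sham libraries and 255, 137, 27.8 and 0 CPM in those of CAG-GFP Pilo. It measured 37, 41, 71.4 and 69.6 CPM in DREADD Sham and 24.5, 29 and 2.68 CPM in DREADD Pilo, so that every DREADD Pilo library lay below every DREADD Sham library. A processed pseudogene, Gad1-ps (chr10:99444044-99445819, plus strand), matches the Gad1 transcript over 1788 bases at 94.2% identity. It had no counts in the 7 libraries with PC or SC names and took up to 20.09% of the sum of both genes in the other 7. Gad2, the smaller decarboxylase, was at 0 in CAG-GFP Sham and did not exceed 10.8 CPM elsewhere. Slc32a1, the vesicular GABA transporter, failed the filter and had counts in 2 libraries, at 1.51 and 0.197 CPM in CAG-GFP Pilo 1 and 3. It shares 697 exon bases with an antisense gene. The sum of 10 interneuron markers was 8.25 to 14.7 CPM in CAG-GFP Sham, 53.3 to 274 in CAG-GFP Pilo, 39.1 to 243 for DREADD Sham and 0.78 to 158 in DREADD Pilo. Of these markers Lhx6 was at 0 in all 14 libraries and Vip was above 0 in 1. Nxph1 was at 0 in CAG-GFP Sham, 8.49 to 259 CPM in CAG-GFP Pilo and 33.6 to 184 in DREADD Sham. It gave 75.7 of the 82.2 CPM in CAG-GFP Pilo 1 and 8.49 of the 53.3 in CAG-GFP Pilo 3. Sst was at 4.72 to 7.75, 0.0941 to 15.6 and 0 to 2.14 CPM in the same order of groups. Dlx1 was at 0 to 0.249, 0 to 13.5 and 1.43 to 80.2 CPM in that order, with 55.6 and 80.2 CPM in DREADD Sham 3 and 4. Dlx5 measured 33.7 CPM in DREADD Sham 4. The part of interneurons in the levels of Gad1 and Gad2 was not tested.

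The breakdown and uptake genes had their highest group means in CAG-GFP Sham. Abat, the transaminase that breaks GABA down (chr16:8513429-8621568, plus strand), measured 171, 221 and 219 CPM in the CAG-GFP Sham libraries and 91, 37.8, 20.3 and 25 CPM in those of CAG-GFP Pilo. It measured 43.2, 48, 123 and 69.2 CPM in DREADD Sham and 42.5, 24.7 and 207 CPM in DREADD Pilo, where the high value was that of replicate 3. Aldh5a1, which oxidises the product of Abat, averaged 72.5 ± 23.6 CPM in the 3 libraries of CAG-GFP Sham (SD, n = 3), 6.48 ± 7.34 for CAG-GFP Pilo (n = 4), 22.2 ± 12.1 for DREADD Sham (n = 4) and 22.8 ± 14.7 for DREADD Pilo (n = 3). It shares 796 and 203 exon bases with 2 genes on the opposite strand. Slc6a11, the GABA transporter of astrocytes, measured 10.5 to 16.1 CPM in the CAG-GFP Sham libraries and 0 to 18.8 CPM in the others, and Slc6a13, another GABA transporter, did not exceed 8.05 CPM. Abat, Aldh5a1, Gabrg1 and Slc6a11 were higher in CAG-GFP Sham than in CAG-GFP Pilo and DREADD Sham without overlap. All 14 astrocyte markers had counts in each group. Gfap reached 976 CPM in CAG-GFP Pilo 1 and 753 CPM in DREADD Pilo 2, against 589 to 709 CPM in CAG-GFP Sham. Sox9 measured 259 CPM in DREADD Pilo 3, against 109 to 127 CPM in CAG-GFP Sham. The sum of the 14 markers was also highest in CAG-GFP Sham. It was 28700 to 30100 CPM in CAG-GFP Sham, 871 to 6630 in CAG-GFP Pilo, 2130 to 5110 in DREADD Sham and 1690 to 3740 in DREADD Pilo. The part of astrocytes in the levels of Gabrg1 and of the breakdown and uptake genes was not tested.

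**Figure D3:**
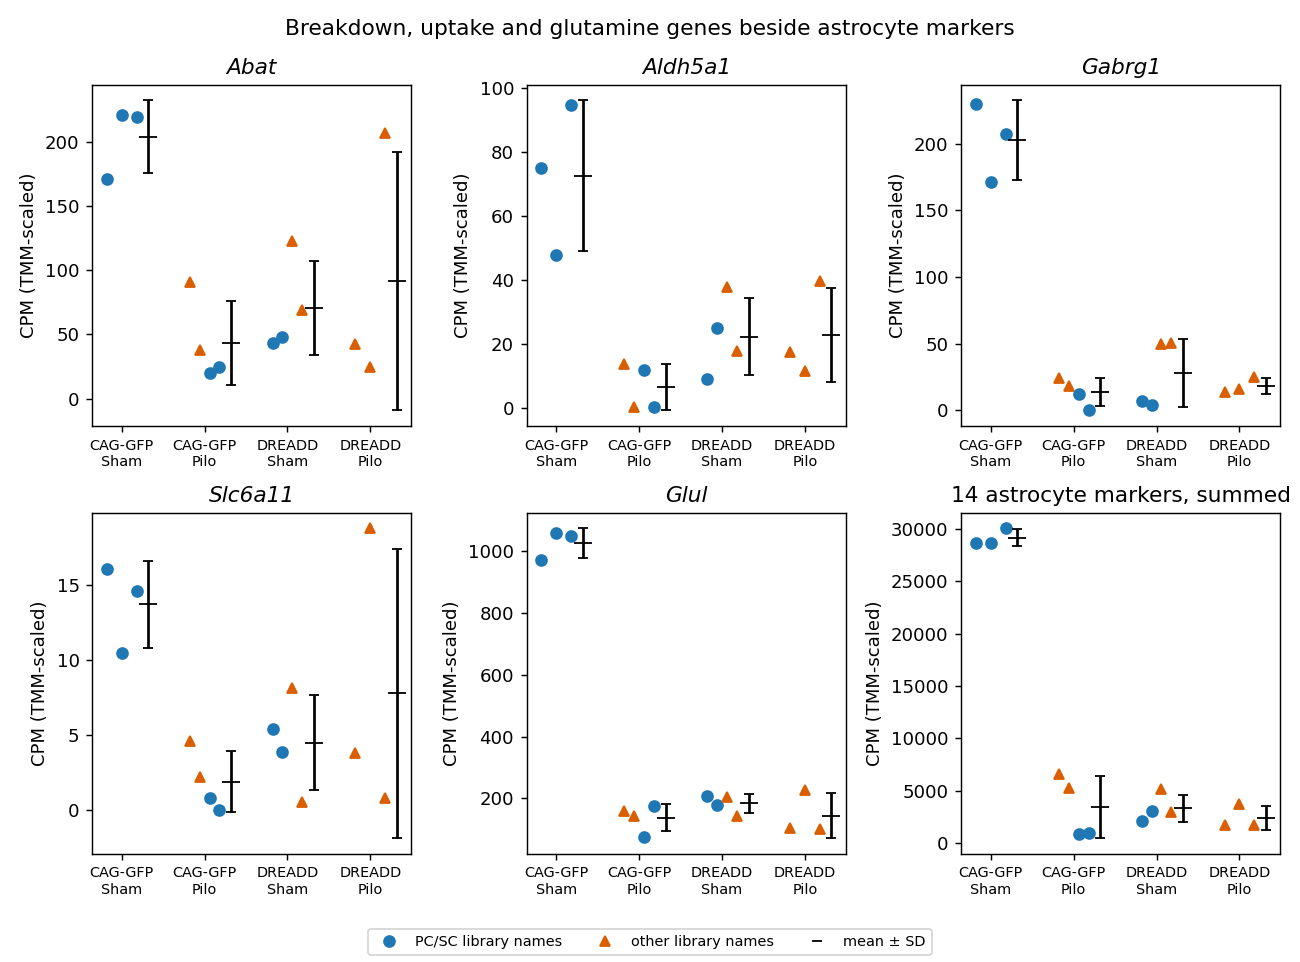
Points show the CPM of Abat, Aldh5a1, Gabrg1, Slc6a11 and Glul and the summed CPM of 14 astrocyte markers in each library by group, with bars for the mean and SD; circles are names ending in PC or SC. In each panel the 3 CAG-GFP Sham libraries lie above those of CAG-GFP Pilo and DREADD Sham, and above DREADD Pilo as well except for 1 library each in Abat (207 CPM) and Slc6a11 (18.8 CPM).

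The GABARAP genes encode small proteins of the ATG8 family, which carry membrane cargo in autophagy, and GABARAP itself binds the gamma subunit of GABA-A receptors. Gabarapl1 (chr6:129533160-129542346, plus strand) measured 41.4, 43.8 and 29.2 CPM in the CAG-GFP Sham libraries and 182, 165, 170 and 83.9 CPM in those of CAG-GFP Pilo. It measured 121, 148, 245 and 142 CPM in DREADD Sham and 140, 123 and 82.7 CPM in DREADD Pilo, so every other library was above CAG-GFP Sham. Gabarapl1 shares 570 exon bases with a gene on the opposite strand. Gabarap (chr11:69991143-69994951, plus strand) measured 781, 743 and 830 CPM in the CAG-GFP Sham libraries and 607, 761, 289 and 200 CPM in those of CAG-GFP Pilo. It measured 250, 303, 384 and 372 CPM in DREADD Sham and 502, 453 and 1010 CPM in DREADD Pilo, so it lay above DREADD Sham in every DREADD Pilo library.

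Gabarapl2 (chr8:111940703-111953612, plus strand) divided by library name. It measured 715, 736 and 808 CPM across CAG-GFP Sham, 37, 49, 390 and 315 CPM across CAG-GFP Pilo, 255, 399, 14.4 and 18.2 CPM for DREADD Sham and 23, 64.7 and 49.3 CPM in DREADD Pilo. The 7 libraries with PC or SC names lay at 255 to 808 CPM and the other 7 at 14.4 to 64.7 CPM. Gabarapl2 was the 1 gene of 23 that separated the name styles in this way, while 3.82% of all genes tested were higher without overlap in PC or SC libraries and 5.23% were lower. A processed pseudogene, Gm5829 (chr1:71709705-71710055, minus strand), matches it at 96.6% identity over 351 bases. The first 120 coding bases of Gabarapl2 are shown with the same stretch of Gm5829, because they show how few bases tell the 2 copies apart, and capitals mark the 3 positions that differ.
Gabarapl2: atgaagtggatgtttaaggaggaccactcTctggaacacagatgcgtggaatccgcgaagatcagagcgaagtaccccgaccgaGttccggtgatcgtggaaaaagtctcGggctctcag
Gm5829: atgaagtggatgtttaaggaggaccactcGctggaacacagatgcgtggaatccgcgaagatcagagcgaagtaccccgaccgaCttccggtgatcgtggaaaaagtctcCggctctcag
Gm5829 and a further pseudogene, Gm6058, together took at most 0.378 CPM by library total alone in the PC or SC libraries and at most 1.48 in the other 7. With both copies added, Gabarapl2 stood at 313 to 551 CPM by library total alone in the PC or SC libraries and at 16.1 to 70.8 in the other 7. The rule for reads that match several places is not given in the sources used here. How far reads of Gabarapl2 were dropped or placed outside these copies was therefore not tested.

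**Figure D4:**
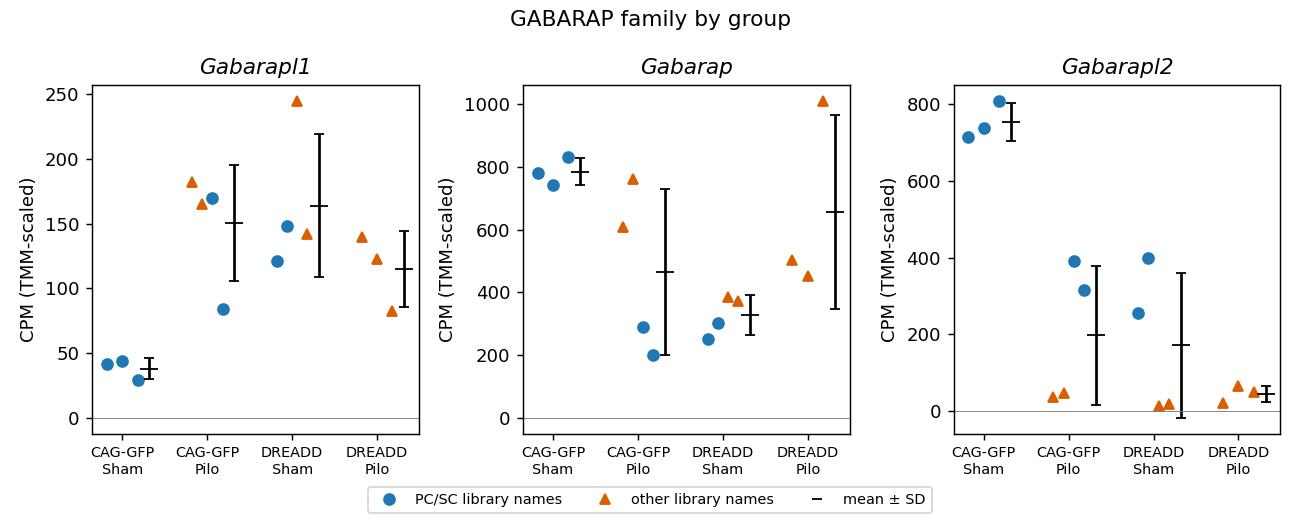
Points show the CPM of Gabarapl1, Gabarap and Gabarapl2 in each library by group, with the mean and SD as bars; circles are names ending in PC or SC and triangles the others. Gabarapl2 lay at 255 to 808 CPM in all circles and at 14.4 to 64.7 in all triangles.

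The comparison of seizures without the DREADD set CAG-GFP Pilo against CAG-GFP Sham. The receptor subunits Gabrb2 and Gabrd and Gabarapl1 were above the highest CAG-GFP Sham value in each CAG-GFP Pilo library, and the breakdown gene Abat was below the lowest, but none of the 23 genes tested passed. With edgeR's quasi-likelihood test and Benjamini-Hochberg adjustment, 0 of 23 were called, against 0.241% of all genes tested (45 genes). At an unadjusted p below 0.05 there were 9 of 23, 6 higher and 3 lower, against 15.4% of all genes. The log2 fold change of Gabarapl1 was 1.98 ± 0.51 (SE; adjusted p = 0.162 in edgeR) and that of Abat -2.23 ± 0.75 (adjusted p = 0.285 in edgeR), and -2.88 without CAG-GFP Pilo 1. Gabrb2, at 0 in CAG-GFP Sham and at least 438-fold higher, had an adjusted p of 0.228 in edgeR. The members' median log2 fold change was 0.47 against 0.41 for all genes, and 0.18 without CAG-GFP Pilo 4. Between groups 5 genes were higher without overlap (Gabarapl1, Gabbr2, Gabrb2, Gabrd and Lhfpl4), against 6.55% of all genes, and 5 were lower (Abat, Aldh5a1, Gabarapl2, Gabrg1 and Slc6a11), against 12.2%. Of 12 summed marker lists, 6 were higher without overlap (oligodendrocyte precursors, oligodendrocytes, interneurons, mature granule cells, immature neurons and microglia) and the astrocyte list was lower. The interneuron sum was mostly Nxph1 in CAG-GFP Pilo 1 and 4, and Sst, Npy and Dlx1 each overlapped between the groups. The part of these lists in the differences was not tested.

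Within the PC or SC libraries alone, which hold 3 CAG-GFP Sham and 2 CAG-GFP Pilo libraries, the calls differed. Abat fell (log2 fold change -3.19 ± 0.43, adjusted p = 0.00876 in edgeR), Gabarap fell (-1.72 ± 0.27, adjusted p = 0.0162 in edgeR) and Gabrb2 rose (adjusted p = 0.0367 in edgeR). Gabarapl1 stood at 1.69 ± 0.45 (adjusted p = 0.112 in edgeR). Of all genes tested there, 2.73% were called (471 genes), and the members' median was 0.75 against -0.07 for all genes. In the pooled comparison DESeq2 called 8 members (Aldh5a1, Gabarapl1, Gabra3, Gabrb2, Gabrd, Gabrg1, Gad1 and Gad2), against 12.6% of all genes (2203 genes).

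The comparison of the DREADD without seizures set DREADD Sham against CAG-GFP Sham, whose libraries it shares with the comparison above. Gabarapl1, Gabrb2 and Gad1 were higher without overlap and 7 genes were lower (Abat, Aldh5a1, Gabarap, Gabarapl2, Gabrb1, Gabrg1 and Slc6a11), against 9.01% and 12.7% of all genes. With edgeR 0 of 23 were called, against 0.3% of all genes (56 genes), and 8 of 23 were at an unadjusted p below 0.05, 5 higher and 3 lower, against 18.6% of all genes. Gabarapl1 stood at 2.10 ± 0.52 on the log2 scale (adjusted p = 0.106 in edgeR), which passed (adjusted p = 0.0469 in edgeR) when CAG-GFP Pilo 4 was left out of the fit. Gabrb2 and Gabra3, each at 0 in CAG-GFP Sham and at least 241-fold and 248-fold higher, had adjusted p of 0.18 and 0.228 in edgeR. The members' median was 0.62 against 0.53 for all genes, and 0.04 without DREADD Sham 1. The summed markers of oligodendrocyte precursors, oligodendrocytes, interneurons, mature granule cells and immature neurons were higher without overlap, and those of astrocytes and of CA pyramidal cells were lower. The interneuron sum was mostly Nxph1 in DREADD Sham 1, 2 and 3. Sst was lower in DREADD Sham, while Dlx1 was higher there without overlap (1.43 to 80.2 CPM against 0 to 0.249 CPM). The part of these lists was not tested. Within the PC or SC libraries Gabarap fell by 1.52 ± 0.27 on the log2 scale (adjusted p = 0.0221 in edgeR), Abat fell by 2.18 ± 0.41 (adjusted p = 0.0287 in edgeR) and Gabrb2 rose (adjusted p = 0.0358 in edgeR), while Gabarapl1 stood at 1.80 ± 0.45 (adjusted p = 0.0875) and Gabra3 had an adjusted p of 0.261 in edgeR. Of all genes tested there, 3.07% were called (530 genes), and the members' median was 0.96 against 0.22 for all genes. In the pooled comparison DESeq2 called 5 members (Gabarapl1, Gabra3, Gabrb2, Gad1 and Gad2), against 15.2% of all genes (2655 genes).

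The comparison of seizures in cells with the DREADD set DREADD Pilo against DREADD Sham. Gabarap and Nlgn2 were higher without overlap and Gad1 was lower, against 4.39% and 2.23% of all genes. With edgeR 0 of 23 genes were called, against 0% of all genes, and 2 of 23 were at an unadjusted p below 0.05, both lower, against 5.18% of all genes. DESeq2 called 0 members, against 0.888% of all genes. Gabra2 had a log2 fold change of -3.01 ± 1.06 and Gabrb1 of -1.42 ± 0.63 (adjusted p = 0.954 for both in edgeR). Gabarap had one of 1.0 ± 0.52 (adjusted p = 0.971 in edgeR), and 0.52 without DREADD Pilo 3. Gabra2 stood at -2.18 without DREADD Sham 1 and at -4.22 without DREADD Pilo 2, and Gabrb1 at -2.03 without DREADD Pilo 2. Within the libraries that lack the PC or SC ending, Gabra2 stood at -1.63 ± 1.26, Gabrb1 at -1.0 ± 0.64 and Gabarap at 0.80 ± 0.56. The members' median was -0.71 against 0.07 for all genes, and -1.36 without DREADD Pilo 1. Within the libraries without the PC or SC ending it was 0.01 against 0.20, with 11 of 22 members above 0, and with name style as a covariate -0.16 against 0.19. The CA pyramidal marker sum was 27.7 to 56.2 CPM in DREADD Pilo and 76.8 to 192 in DREADD Sham, and its part was not tested.

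The comparison of silencing after seizures set DREADD Pilo against CAG-GFP Pilo, each group also used in a comparison above. Of the 23 genes tested, 5 were lower without overlap (Gabbr1, Gabbr2, Gabra2, Gabrb1 and Gabrd), against 3.15% of all genes, and 0 were higher, against 5.69%. The marker sums of mature granule cells (145 to 207 CPM against 387 to 1140) and of CA pyramidal cells (27.7 to 56.2 CPM against 58 to 325) were also lower in DREADD Pilo without overlap, and their part in the receptor genes was not tested. With edgeR 0 of 23 were called, against 0% of all genes, and 2 of 23 were at an unadjusted p below 0.05, both lower, against 5.36% of all genes. DESeq2 called 0 members, against 0.984% of all genes. Gabra2 had a log2 fold change of -3.28 ± 1.08, Gabrb1 of -1.87 ± 0.64 and Gabra4 of -2.25 ± 1.16 (adjusted p = 0.882 for each in edgeR). Without DREADD Pilo 2 the values for Gabra2 and Gabrb1 were -4.47 and -2.47. Within the libraries that lack the PC or SC ending, Gabra2 stood at -3.34 ± 1.30, Gabrb1 at -1.48 ± 0.64 and Gabra4 at -2.55 ± 0.96. The members' median was -1.04 against 0.28 for all genes, -0.74 against 0.26 within the libraries without the PC or SC ending and -0.61 against 0.30 with name style as a covariate.

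The interaction asked whether the change after pilocarpine differed between cells with and without the DREADD. With edgeR 0 of 23 genes were called, against 0% of all genes, and 9 of 23 were at an unadjusted p below 0.05, 2 higher and 7 lower, against 11.7% of all genes. DESeq2 called 5 (Gabarapl1, Gabra3, Gabrb2, Gabrd and Gad1), against 8.5% of all genes (1461 genes). Gabarapl1 had a difference of -2.49 ± 0.70 (adjusted p = 0.322 in edgeR). Gabrb2 had an adjusted p of 0.323 in edgeR; with CAG-GFP Sham at 0 its fitted difference depends on the prior count and is not given. Gabrd had a difference of -8.72 ± 3.19 (adjusted p = 0.412 in edgeR), with counts in 1 of 3 CAG-GFP Sham libraries. The difference was -7.40 without DREADD Sham 1. Without CAG-GFP Sham 3, which holds those counts, CAG-GFP Sham is at 0, so that fitted difference depends on the prior count and is not given. No name style holds all 4 groups, so the interaction had no value within one. The members' median was -1.65 against -0.43 for all genes, -0.99 without DREADD Sham 4, -1.05 without CAG-GFP Pilo 3 and -0.91 against 0.17 with name style as a covariate.

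**Figure D5:**
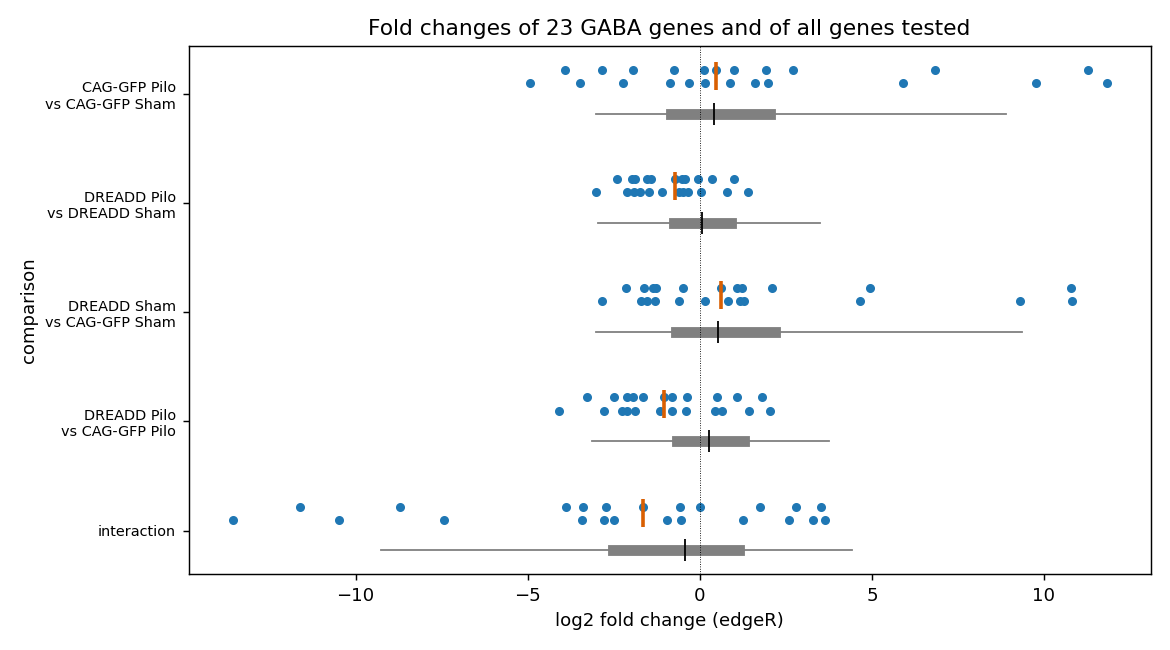
Blue points show the log2 fold change of each of the 23 GABA genes in 5 comparisons, with their median in orange; grey bars span the middle 50% and 90% of all 18676 genes tested, with the median in black. The members' median lay at 0.47, -0.71, 0.62, -1.04 and -1.65 from top to bottom, against 0.41, 0.07, 0.53, 0.28 and -0.43 for all genes, and points beyond 9 on either side belong to genes at 0 in CAG-GFP Sham.

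The other genes of the GABA pathway were a list of 28, of which 22 were tested. These are further receptor subunits, synapse and GABA-B auxiliary proteins, and enzymes and carriers of glutamine and GABA. In edgeR 1 of 22 fell in CAG-GFP Pilo and in DREADD Sham, each against CAG-GFP Sham, and 0 rose, against 0.241% and 0.3% of all genes called. In each of these 2 comparisons 4 of 22 were at an unadjusted p below 0.05, against 15.4% and 18.6% of all genes. In the other comparisons 0 of 22 passed in either direction, against 0% of all genes. At an unadjusted p below 0.05 there were 1, 1 and 4 of 22, against 5.18%, 5.36% and 11.7% of all genes. The order is DREADD Pilo against DREADD Sham, DREADD Pilo against CAG-GFP Pilo and the interaction. The gene that fell was Glul, the glutamine synthetase of astrocytes. It measured 972, 1060 and 1050 CPM in CAG-GFP Sham, 159, 142, 74.6 and 174 for CAG-GFP Pilo, 207, 178, 205 and 143 for DREADD Sham and 104, 228 and 99 for DREADD Pilo, so CAG-GFP Sham lay above all others. The log2 fold change was -2.90 ± 0.48 in CAG-GFP Pilo (adjusted p = 0.0272 in edgeR) and -2.49 ± 0.48 in DREADD Sham (adjusted p = 0.0451 in edgeR). Over all alternatives the adjusted p ran from 6.74e-08 to 0.182 and from 9.63e-06 to 0.256. The call ended with any 1 of the 7 compared libraries left out (adjusted p of 0.0516 to 0.126 and of 0.117 to 0.203 in edgeR) and with the library total alone as scaling (0.118 and 0.151). Within the PC or SC libraries Glul fell by 3.05 ± 0.43 and by 2.44 ± 0.41 on the log2 scale (adjusted p = 0.00976 and 0.0195 in edgeR). The astrocyte marker sum given above was also highest in CAG-GFP Sham, and its part in the level of Glul was not tested. In the other comparisons the smallest p values belonged to genes that did not pass. Kctd16, an auxiliary subunit of the GABA-B receptor, was at 0 in all DREADD Pilo libraries, at 9.31, 3.15, 0 and 0 CPM in DREADD Sham and at 13.6, 1.84, 4.66 and 0 CPM in CAG-GFP Pilo (adjusted p = 0.954 and 0.882 in edgeR). Map1lc3a, another ATG8 gene, had a log2 value of 1.38 ± 0.77 in DREADD Pilo against DREADD Sham (adjusted p = 1 in edgeR), and -0.78 without DREADD Pilo 3, where it measured 198 CPM. Slc38a2, a glutamine carrier, had 1.45 ± 0.72 in DREADD Pilo against CAG-GFP Pilo (adjusted p = 0.882 in edgeR), and 0.53 without DREADD Pilo 2. In the interaction Glul had a difference of 2.55 ± 0.66 (adjusted p = 0.261 in edgeR), and Kctd8, another GABA-B auxiliary subunit, had counts in 4 libraries and an adjusted p of 0.412 in edgeR.

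Promoters of 23 of the 25 genes were in the RefSeq table of GRCm38.p6, which has 29 entries for them. Abat and Gabrd were not in it. The GC box, GGGCGG on either strand, was found in 15 of the 29 (51.7%), against 35.7% of all 32851 promoters. The TATA box letters TATAAA were found in 13.8% against 13.6%. The letters of the CRE (TGACGTCA), the E-box (CACGTG) and the AP-1 site (TGANTCA) were found in none, against 1.79%, 7.15% and 7.81% of all promoters. The promoter of Gabarapl1 (chr6:129532942-129533241, plus strand) is shown as that of the gene with the smallest p among the members in 3 comparisons, with capitals for the GC boxes.
Gabarapl1: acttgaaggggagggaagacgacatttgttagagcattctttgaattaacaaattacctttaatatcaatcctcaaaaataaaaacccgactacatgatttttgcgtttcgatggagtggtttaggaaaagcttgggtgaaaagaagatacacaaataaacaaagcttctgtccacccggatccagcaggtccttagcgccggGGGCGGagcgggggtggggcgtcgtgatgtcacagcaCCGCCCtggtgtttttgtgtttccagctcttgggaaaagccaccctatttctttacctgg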

How the data were processed

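RNA was counted per gene in 14 libraries. The table deposited by the authors holds raw counts, as its whole numbers show, without normalisation. Bowtie2, featureCounts (Subread), edgeR and R 4.1.1 are listed, with no roles, per the submitters' processing notes, which name the build hg38, although every identifier is a mouse Ensembl one. Annotation release, strand setting and the handling of multiply matching reads were not given in the sources used here. Reads of near-identical copies or of genes on opposite strands may therefore be split or lost. The unversioned identifier was looked up in mouse GENCODE M21 (GRCm38) for symbol and position, and 42462 of 43346 were found.

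Genes passing filterByExpr were fitted in 1 model of all 14 libraries with a coefficient per group, TMM factors and the quasi-likelihood F-test of edgeR 4.0.16 in R 4.3.3, with Benjamini-Hochberg adjustment over all 18676 genes and a threshold of 0.05. The test gives no SE, so the SE of an edgeR log2 fold change was its absolute value divided by the square root of F. CPM divide each count by the library total times its TMM factor, with SD over libraries. The common biological coefficient of variation was 1.47. A group at 0 was set to 3 counts over the group for a lower bound. Near-identical copies were transcripts with at least 90% identity over at least 200 bases. The test was checked on simulated counts with known changes, at a spread set far below that of these data. That check therefore does not show how many changes the test would miss here.

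Alternatives were RLE scaling, DESeq2 1.42.0, no low-count filter, name style as a covariate, fits within a name style, a replicate block and each library left out. Scaling by library total alone in the fits was added after the data were seen. All 25 genes are named with levels, and per comparison the 3 with the smallest p are given with fold changes, or, where a group is at 0, with the lower bound or the adjusted p alone; of the other pathway genes, those that passed or had the 2 smallest p are named. The members and lists were chosen with earlier results of these data known.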

Additional observations from a re-analysis of the deposited data

Results flagged for a closer look

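Within the groups of 4 libraries, 50 gene and group pairs were examined for a library whose gap to its nearest neighbour exceeded Dixon's 95% critical value, and 10 were found. The chance rate of about 1 in 20 holds for normally distributed values. Several of these pairs had libraries at 0, where 1 library with counts is always flagged, so the 10 cannot be set against that rate. In CAG-GFP Pilo 3, Gabrg3 stood at 10.6 CPM against 0 in the other 3 libraries, Gabbr2 at 80.3 CPM against 34.9 for the nearest, and Slc6a13 at 0.346 CPM against 0. In CAG-GFP Pilo 4, Lhfpl4 stood at 79.7 CPM against 23.6 for the nearest, and Gabarapl1 at 83.9 CPM below the 165 of the nearest. In CAG-GFP Pilo 1, Slc32a1 stood at 1.51 CPM against 0.197. In DREADD Sham 1, Gabre stood at 5.36 CPM against 0. In DREADD Sham 4, Nlgn2 stood at 0.0435 CPM against 5.63, Gad2 at 10.8 CPM against 1.66, and Slc6a13 at 4.35 CPM against 0.147.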

How the results depend on the processing

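With edgeR, 0 of 23 GABA genes were called in every comparison under TMM, RLE or library-total scaling, 0 of 25 without the low-count filter, and 0 of 23 with name style as a covariate and with a replicate block. Deviations of log CPM from the group mean correlated at -0.381 to 0.115 between same-numbered libraries of different groups, with 1 of 19 pairs over 0.1. The lowest values were between CAG-GFP Pilo and DREADD Sham, whose same-numbered libraries differ in name style. These correlations therefore cannot show whether the replicate numbers pair the libraries. With the block 0 members were called. DESeq2 called 8 in CAG-GFP Pilo against CAG-GFP Sham, 5 in DREADD Sham against CAG-GFP Sham and 5 in the interaction, and fits within the PC or SC names called 3 in each of the first 2; the cause was not tested. With each library left out, the number called stayed at 0 in 4 comparisons and 0 to 1 in DREADD Sham against CAG-GFP Sham. Genes without overlap numbered 10 to 14, 3 to 6, 10 to 14 and 5 to 8 with each compared library left out, from 10, 3, 10 and 5. The order is CAG-GFP Pilo against Sham, DREADD Pilo against Sham, DREADD Sham against CAG-GFP Sham and DREADD Pilo against CAG-GFP Pilo. Leaving out a library can only keep or raise this count, so these ranges do not show that it is stable. By library total alone it was 6 in DREADD Sham against CAG-GFP Sham. The share over all genes was not computed for these settings. Over all genes, 45 were called in CAG-GFP Pilo and 56 in DREADD Sham against CAG-GFP Sham, and with each library left out 3 to 151 and 6 to 260. These counts were 471 and 530 within the PC or SC names, 89 and 146 with name style as a covariate, 1 and 0 with the block, and 2203 and 2655 by DESeq2, which called 158, 172 and 1461 in the other 3 comparisons, where edgeR called 0. Of 477 alternatives for 23 named results, 441 kept their direction and side of the threshold, 13 gained a call, 22 lost it and 1 changed sign. The calls lost were those of Glul, whose adjusted p with the block was 0.182 in CAG-GFP Pilo and 0.256 in DREADD Sham against CAG-GFP Sham, and in the latter 0.0635 with RLE and 0.066 without the filter. Map1lc3a, a relative of the GABARAP genes with the next smallest p on the pathway list in DREADD Pilo against DREADD Sham, turned to -0.78 without DREADD Pilo 3, from 1.38, with a range of -0.78 to 1.84 over libraries left out. Library-total scaling shifted the median of all genes by 0.65, -0.29, 0.77, -0.19 and -0.95 on the log2 scale and turned the sign of Gabrg3, Aldh5a1, Abat, Nlgn2, Gabbr1 and Gabarapl2 in 1 comparison each. It moved the share of higher calls to 53.1% and 38.5% (17 of 32 and 5 of 13 called) from 13 of 45 and 10 of 56. The members' median ran, with each compared library left out, from 0.18 to 0.70 in CAG-GFP Pilo against Sham, -1.36 to -0.57 in DREADD Pilo against Sham, 0.04 (without DREADD Sham 1) to 1.02 (without CAG-GFP Sham 2) in DREADD Sham against CAG-GFP Sham, -1.25 to -0.78 in DREADD Pilo against CAG-GFP Pilo and -2.25 to -0.99 in the interaction. By library total alone the medians were 1.30, -0.95, 1.42, -1.18 and -2.73 in that order, and with the replicate block 0.72, -1.04, -0.04, -1.29 and -0.86.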
